A study of Mus musculus with 18 samples.

Results

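The Irg1 locus was examined as the 61 accessible chromatin regions (peaks), of 194284 in the whole study, that overlap the Irg1 gene or the 100 kb on either side of it. In the mouse genome build mm9, Irg1 (ENSMUSG00000022126.6, now named Acod1) lies on the forward strand of chromosome 14 from 103446194 to 103455790, so that the window ran from 103346194 to 103555790 and was 209.6 kb long. The locus was selected on the measured (+)-JQ1 values of a peak 72.8 kb upstream of the gene, which was higher with (+)-JQ1, and comparisons of (+)-JQ1 with its absence are therefore given below as a description, without a test, and so are those of the LPS libraries at that peak and its neighbour at -68.8 kb. Each peak is named by the distance of its centre from the annotated transcription start site (TSS) of Irg1, with upstream distances negative.

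Accessibility was measured by ATAC-seq, in which a transposase cuts open DNA and inserts sequencing adapters, so that the reads over a region count how open it is. The cells were bone marrow-derived macrophages (BMDMs) of Il10-/- mice on the C57BL/6J background, whose cells make no IL-10, a cytokine that restrains inflammation. Marrow of 3 male mice aged 12 weeks was grown in medium conditioned by L929 cells, and the cells of each mouse were used in 6 conditions, which gave 3 libraries per condition and 18 in all. All 6 conditions carry the Il10 deletion, and no wild-type library is among them, so that a level in cells with their own IL-10 is not analysed here.

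Unstimulated cells were cultured for 16 hours with neither LPS nor a second agent. The paper lists a vehicle control among the 12-hour treatments before LPS, while the sample titles call the LPS cells untreated. (+)-JQ1 cells received 500 nM of (+)-JQ1, a small molecule that occupies the acetyl-lysine pocket of the bromodomains of BET proteins, and IL-10 cells received 10 ng/mL of recombinant IL-10. LPS cells received 50 ng/mL of lipopolysaccharide, a bacterial cell wall component sensed by Toll-like receptor 4, for the last 4 hours. LPS + (+)-JQ1 and LPS + IL-10 cells received the second agent for 12 hours before LPS was added.

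Irg1 encodes the mitochondrial enzyme that removes a carboxyl group from cis-aconitate, an intermediate of the citrate cycle, and so makes itaconate. The gene is known for its strong induction in macrophages that sense bacteria. Itaconate inhibits succinate dehydrogenase, is toxic to bacteria that use the glyoxylate cycle, and modifies cysteines of KEAP1, which releases the electrophile-response factor NRF2 (Nfe2l2).

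The peaks on which the results turn are shown by sequence. These are the 300 bases before the Irg1 TSS, and the central 300 bases of the far upstream peak at -72.8 kb that led to the choice of the locus and of the pair of peaks beyond the 3′ end of the gene with the largest LPS response outside it. All are from the forward strand of mm9, and the capitals mark matches to a kappaB consensus, the motif of NF-kappaB.
Irg1 promoter, chr14:103445894-103446193: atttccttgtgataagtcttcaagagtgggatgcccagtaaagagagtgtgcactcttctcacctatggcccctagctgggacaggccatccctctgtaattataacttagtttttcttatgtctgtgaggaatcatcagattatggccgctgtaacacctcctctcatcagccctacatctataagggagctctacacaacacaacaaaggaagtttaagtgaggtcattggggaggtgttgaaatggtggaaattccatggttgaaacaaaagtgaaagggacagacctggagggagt
Peak at -72.8 kb, chr14:103373243-103373542: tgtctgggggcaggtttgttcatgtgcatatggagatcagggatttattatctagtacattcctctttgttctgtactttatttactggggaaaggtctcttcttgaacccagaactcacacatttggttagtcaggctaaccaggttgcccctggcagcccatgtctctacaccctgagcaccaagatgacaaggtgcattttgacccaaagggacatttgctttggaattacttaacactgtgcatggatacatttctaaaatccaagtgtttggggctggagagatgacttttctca
Peak at +13.2 kb, chr14:103459289-103459588: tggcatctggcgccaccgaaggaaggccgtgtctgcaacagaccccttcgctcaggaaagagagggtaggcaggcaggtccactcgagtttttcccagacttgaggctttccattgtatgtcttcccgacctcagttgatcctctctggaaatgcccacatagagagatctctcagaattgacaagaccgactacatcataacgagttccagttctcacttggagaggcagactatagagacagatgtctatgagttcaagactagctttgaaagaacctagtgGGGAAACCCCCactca
Peak at +16.1 kb, chr14:103462164-103462463: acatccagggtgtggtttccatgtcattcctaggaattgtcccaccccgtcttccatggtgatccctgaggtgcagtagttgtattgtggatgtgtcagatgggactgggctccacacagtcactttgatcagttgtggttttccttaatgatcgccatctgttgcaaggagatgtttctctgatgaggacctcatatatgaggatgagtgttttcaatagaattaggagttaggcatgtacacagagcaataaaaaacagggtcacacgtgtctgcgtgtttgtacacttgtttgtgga

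Both strands of the central 300 bases of every peak were searched for 5 motifs: the kappaB consensus, the consensus of interferon regulatory factors (IRF), TGANTCA of AP-1, GAGGAAGT of PU.1 and TTGCNNAA of C/EBP. The peak at +13.2 kb held 2 overlapping kappaB matches, from base 285 to base 295 of the printed window, and was the only 1 of the 61 peaks with any, against 6.0% of all peaks and 8.9% of 22370 TSS windows of the same length. AP-1 letters were in 6 of the 61 (9.8%, against 12.1% of all peaks), C/EBP letters in 8 (13.1% against 12.5%), IRF letters in 4 (6.6% against 4.4%) and PU.1 letters in 2 (3.3% against 4.6%). The printed windows of the promoter, -72.8 kb and +16.1 kb held none of the 5, which says only that these letters are absent from those 300 bases. A match is a stretch of letters and not evidence of a bound factor.

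The authors classed 17 of the 61 peaks as promoter and 44 as distal. Centres of 28 lay upstream of the Irg1 TSS and of 33 downstream, 3 peaks overlapped the gene, and their median width was 1272 bp, against 956 bp for all peaks. Besides Irg1 the window holds the 3′ part of Mycbp2 (a large ubiquitin ligase) and, on the far upstream side, the Kctd12 and Gm17446 annotations. Reads were summed per peak and scaled to CPM, the counts divided by the library total after TMM adjustment. The total count in peaks was 12020526 to 25908198 per library. All 61 peaks passed the filter on low counts, as did 194230 of the 194284 peaks.

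Differentially accessible regions (DARs) were peaks with an FDR below 0.05 and a |log2 fold-change| above 0.5 in edgeR's quasi-likelihood test, with FDRs adjusted over all 194230 peaks. Libraries of replicate 1 were sequenced in lane 5 and those of replicate 3 in lane 6. Those of replicate 2 were in lane 5 without LPS and in lane 6 with LPS. Log2 ratios within each lane are therefore given for the main peaks. The TMM factors of the unstimulated libraries were 1.04 to 1.24, against 0.896 to 1.049 in the others, and the scaling moved results: with libraries scaled to total counts instead, the median change over all peaks moved on the log2 scale from -0.03 to -0.26 for LPS and from -0.05 to -0.26 for IL-10 alone. Promoter peaks of all 8 macrophage markers searched were in the table (Csf1r, Spi1, Emr1, Cd68, Itgam, Fcgr1, Cd14 and Mertk), and none of 4 T cell markers had one. The macrophage markers summed to 81.8 to 129 CPM per kb in unstimulated cells, 165 to 184 with (+)-JQ1, 138 to 142 with IL-10, 118 to 132 with LPS, 148 to 172 with LPS + (+)-JQ1 and 121 to 139 with LPS + IL-10, so that the libraries with (+)-JQ1 stood above all others. B cell markers (2 of 3 with a peak) summed to 2.71 to 4.1 CPM per kb, those of dendritic cells (2 of 3) to 20.1 to 42.3, and those of stroma or epithelium (4 of 4) to 11.9 to 15.2. Neutrophil markers (3 of 4, without Ly6g) summed to 7.29 to 8.8 in unstimulated cells, 14.1 to 15.9 with LPS, 12.0 to 15.3 with LPS + (+)-JQ1 and 16.6 to 19.8 with LPS + IL-10. The part of these marker levels in the results was not tested.

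**Figure D1:**
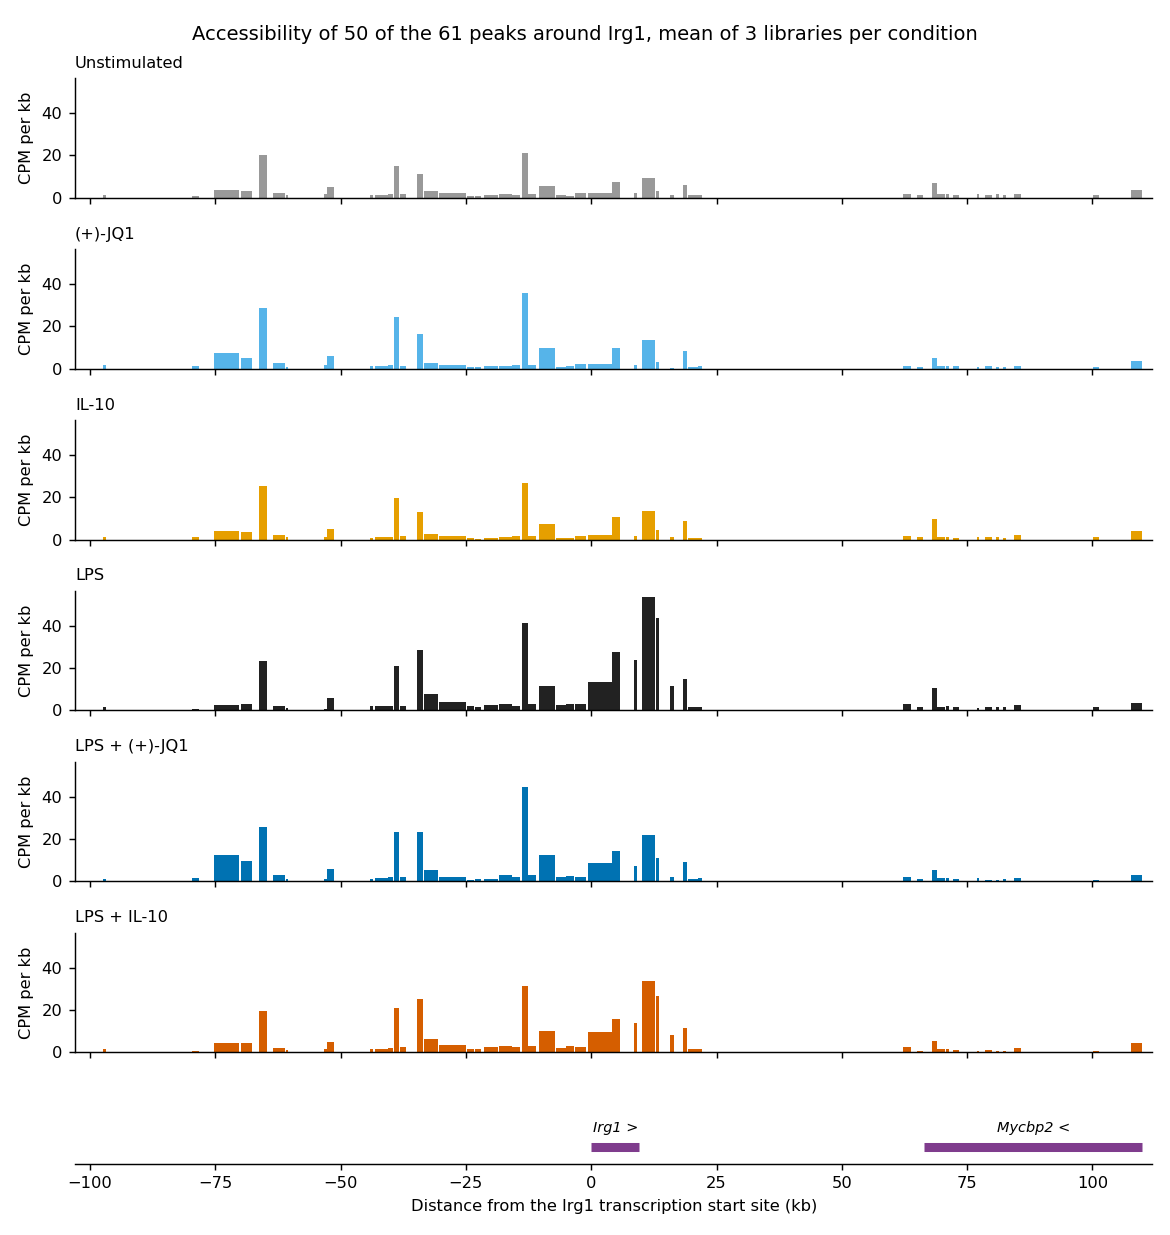
Mean accessibility of 50 of the 61 peaks in each of the 6 conditions, in CPM per kb of peak (y axis, the same range in every panel), against the distance from the Irg1 TSS in kb (x axis), where a bar spans the width of its peak. The bottom row shows Irg1 and Mycbp2 with their direction. The bars over Irg1 and the 20 kb beyond it stand highest in LPS, with 53.5 CPM per kb at +11.4 kb.

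LPS raised accessibility across the Irg1 gene and both its flanks. The 7 peaks from the promoter to +18.7 kb all rose, by log2 fold-changes of 1.25 to 3.83, and 15 of the 19 peaks in the 44 kb upstream of the gene rose by 0.54 to 1.61. None of the 9 peaks farther upstream was past the DAR threshold, which for those at -72.8 and -68.8 kb is a description. Under total-count and loess scaling that at -72.8 kb was past it, and lower with LPS. In all, 26 of the 61 peaks were higher with LPS (42.6%, against 11.7% of all peaks) and 0 were lower (against 10.2%). The median log2 fold-change of the 61 peaks was 0.53, against -0.03 over all peaks. The values of the groups did not overlap at 34 peaks that were higher (against 18.1% of all peaks) and at 1 that was lower (against 17.0%). Of the 26 DARs, 17 held under all 13 alternative settings. Scaled to total counts, 6.58% of all peaks were higher and 19.3% lower with LPS, and 19 of the 26 stayed DARs.

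The Irg1 promoter peak spans the TSS from 103445580 to 103450303, with exons of the gene inside it. Its values were 8.57, 9.29 and 10.4 CPM in the unstimulated replicates 1, 2 and 3 and 63.0, 63.4 and 64.7 CPM with LPS. The groups were far apart, and the LPS libraries differed little from each other (63.7 ± 0.914 CPM, SD, n = 3, against 9.42 ± 0.930 CPM). The peak rose by a log2 fold-change of 2.75 (SE 0.15, FDR 1.3e-30), with log2 ratios of 2.82 within lane 5 and 2.62 within lane 6. It was the 287th highest log2 fold-change of 194230 peaks.

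The peak at +5.0 kb, which overlaps an internal exon of Irg1 and the introns around it, rose from 10.6 ± 2.55 to 40.1 ± 2.83 CPM (log2 fold-change 1.91, SE 0.15, FDR 1.69e-20). The peak at +8.9 kb lies within the 3′ UTR in the last exon of Irg1 and rose from 1.26 ± 0.588 to 15.5 ± 1.11 CPM (log2 fold-change 3.64, SE 0.24, FDR 1.8e-25, 58th highest of all peaks). These are rises of peaks that in unstimulated cells held 11 to 26 reads at +8.9 kb and 127 to 245 reads at +5.0 kb.

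The peak with the most reads in LPS cells lay beyond the 3′ end of the gene. At +11.4 kb, the values were 18.1, 20.9 and 29.0 CPM in unstimulated cells and 144.9, 121.7 and 126.7 CPM with LPS. Every LPS library exceeded every unstimulated one, and the log2 fold-change was 2.53 (SE 0.16, FDR 4.85e-27), with 2.89 in lane 5 and 2.10 in lane 6. Per length, its level with LPS was 53.5 CPM per kb, and its lowest group mean, in unstimulated cells, was 9.27 CPM per kb.

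The peak with the largest LPS response was at +13.2 kb, the one with the kappaB letters printed above. It had 1.87, 1.98 and 2.63 CPM in unstimulated cells and 36.2, 27.0 and 29.7 CPM with LPS. The groups did not overlap, and its log2 fold-change of 3.83 (SE 0.19, FDR 5.16e-34) was the 38th highest of 194230 peaks. The log2 ratio was 4.23 in lane 5 and 3.43 in lane 6.

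At +16.1 kb the values were 0.669, 0.934 and 0.548 CPM without LPS, which were 10, 17 and 10 reads, and 6.71, 8.09 and 8.60 CPM with LPS. This peak was barely detected before LPS and rose by a log2 fold-change of 3.42 (SE 0.29, FDR 1.05e-18, 83rd highest). The last of the 7, at +18.7 kb, rose from 4.32 ± 1.47 to 10.4 ± 1.46 CPM (log2 fold-change 1.25, SE 0.18, FDR 8.32e-09). Summed over the 7 peaks, the level was 42.6, 48.2 and 62.6 CPM without LPS and 313, 285.1 and 300.5 CPM with LPS, a ratio of 5.86.

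Upstream of the gene, the responses were smaller and were spread over a long stretch. From -43.9 to -2.2 kb, the 19 peaks together held 111, 112.5 and 137.6 CPM in unstimulated cells and 254.7, 241.1 and 228.5 CPM with LPS, a ratio of 2.0. All 19 had positive log2 fold-changes. The largest were at -4.2 kb (1.61, FDR 1.31e-07), -32.0 kb (1.40, FDR 4.17e-14) and -34.2 kb (1.35, FDR 1.04e-13), each a DAR under all 13 alternatives. The division of the window into stretches was made after the values were seen, and the sums carry no test.

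Farther downstream, changes with LPS were smaller. At the annotated Mycbp2 starts, the peak at +68.5 kb rose (0.59, FDR 0.00783) and those at +69.7 and +108.8 kb had values of -0.04 and -0.05. The rise at +68.5 kb was lost under total-count and loess scaling and without replicate 1. Just beyond the 3′ end of Mycbp2, at +63.0 kb, a distal peak rose by 0.96 (FDR 0.000501) under every setting.

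**Figure D2:**
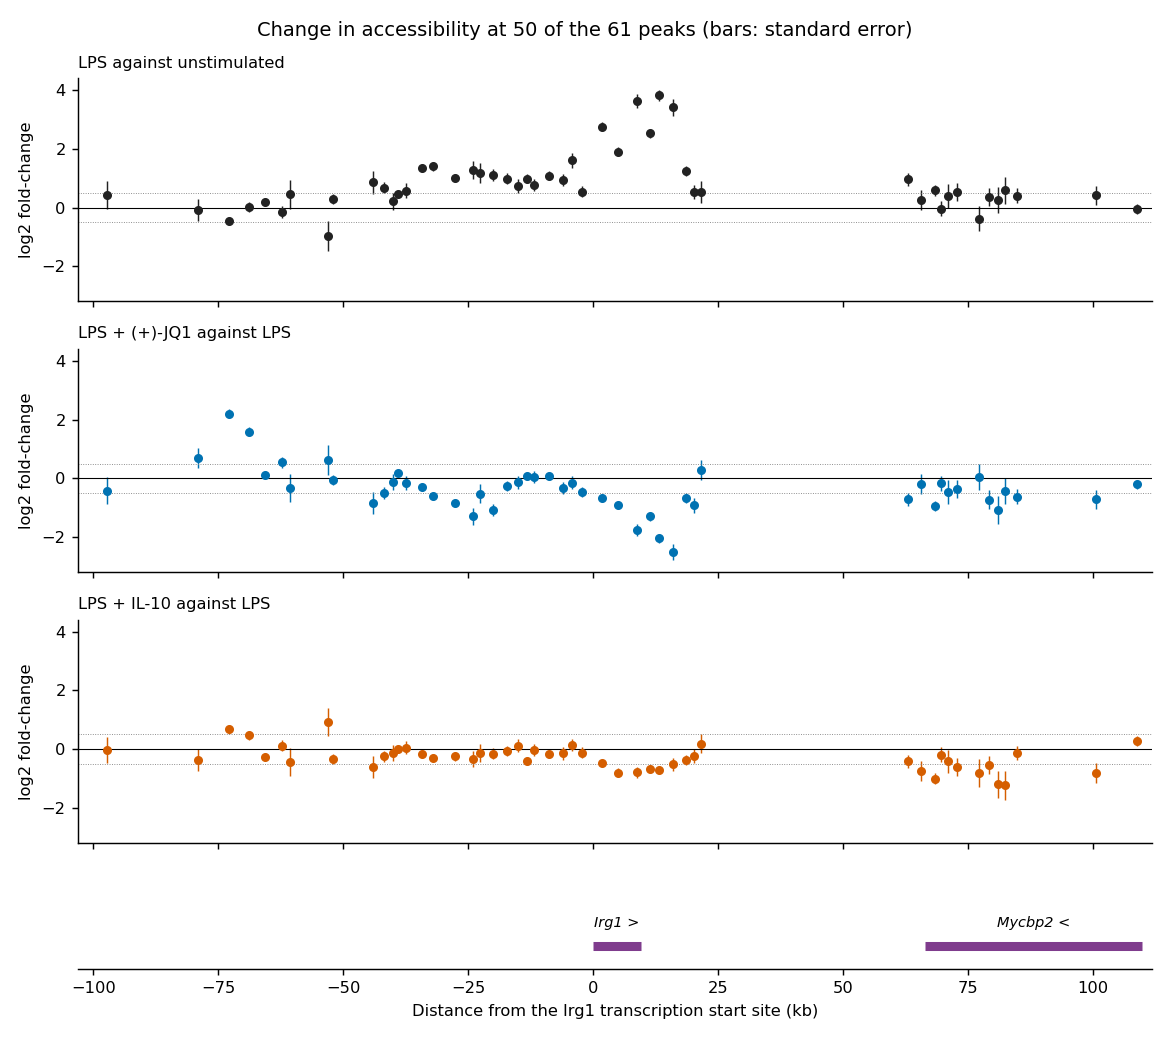
Log2 fold-change of 50 of the 61 peaks (y axis, points with standard errors, dotted lines at 0.5 and -0.5) against distance from the Irg1 TSS in kb (x axis), for LPS against unstimulated cells, LPS + (+)-JQ1 against LPS and LPS + IL-10 against LPS. With LPS the points reach 3.83 at +13.2 kb, with (+)-JQ1 the same stretch lies below 0 and the points at -72.8 and -68.8 kb reach 2.20 and 1.59, and with IL-10 the changes are smaller.

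In (+)-JQ1-treated cells, LPS still opened the promoter. LPS + (+)-JQ1 was compared with (+)-JQ1 alone to see which peaks respond to LPS when BET proteins are inhibited. The promoter peak had 9.60, 10.5 and 9.57 CPM with (+)-JQ1 alone and 51.2, 36.6 and 32.6 CPM with LPS added. The groups were well separated, and the rise was 2.01 on the log2 scale (SE 0.15, FDR 3.73e-21). Over the window, 14 of the 61 peaks were higher (23.0%, against 5.69% of all peaks) and 0 lower (against 3.58%), among them 6 of the 7 peaks from the promoter to +18.7 kb. The 14 include those at -72.8 and -68.8 kb, and the comparison shares the LPS + (+)-JQ1 and (+)-JQ1 libraries with those that led to the choice of the locus, so nothing is read from the count.

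At +11.4 kb the rise in (+)-JQ1-treated cells was 0.69 (SE 0.15, FDR 0.000362), from 32.9 ± 1.57 to 53.4 ± 14.1 CPM. Without replicate 1, whose LPS + (+)-JQ1 library had 69.1 CPM against 49.3 and 41.9 in the others, it was no longer a DAR, at a log2 fold-change of 0.43. At +5.0 kb the rise was 0.55 (FDR 0.00575), and it too rested on replicate 1, with 0.35 when it was left out. At +13.2 kb it was 1.78 (SE 0.21, FDR 1.48e-11), at +8.9 kb 1.94 (SE 0.27, FDR 7.85e-09) and at +18.7 kb 0.17 (FDR 0.646). At +16.1 kb it was 2.88 (SE 0.47, FDR 9.37e-07), from a base of only 1, 3 and 5 reads in the (+)-JQ1 libraries.

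In IL-10-treated cells, the same comparison found 21 of 61 peaks higher with LPS (34.4%, against 8.93% of all peaks) and 1 lower (1.64%, against 6.47%). The promoter peak rose from 10.8, 9.87 and 8.69 CPM to 52.1, 39.1 and 45.2 CPM. No library of one group reached the other, and the log2 fold-change was 2.22 (SE 0.15, FDR 2.8e-24). Rises were 2.96 at +8.9 kb (FDR 3.07e-19), 2.61 at +13.2 kb (FDR 7.58e-24), 2.69 at +16.1 kb (FDR 7.81e-14) and 1.32 at +11.4 kb (FDR 5.01e-12). Of the 19 peaks upstream of the gene, 13 rose, with 1.97 at -22.6 kb (FDR 2.9e-05) and 1.82 at -4.2 kb (FDR 1.95e-09) as the largest. The 1 lower peak was at +68.5 kb.

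**Figure D3:**
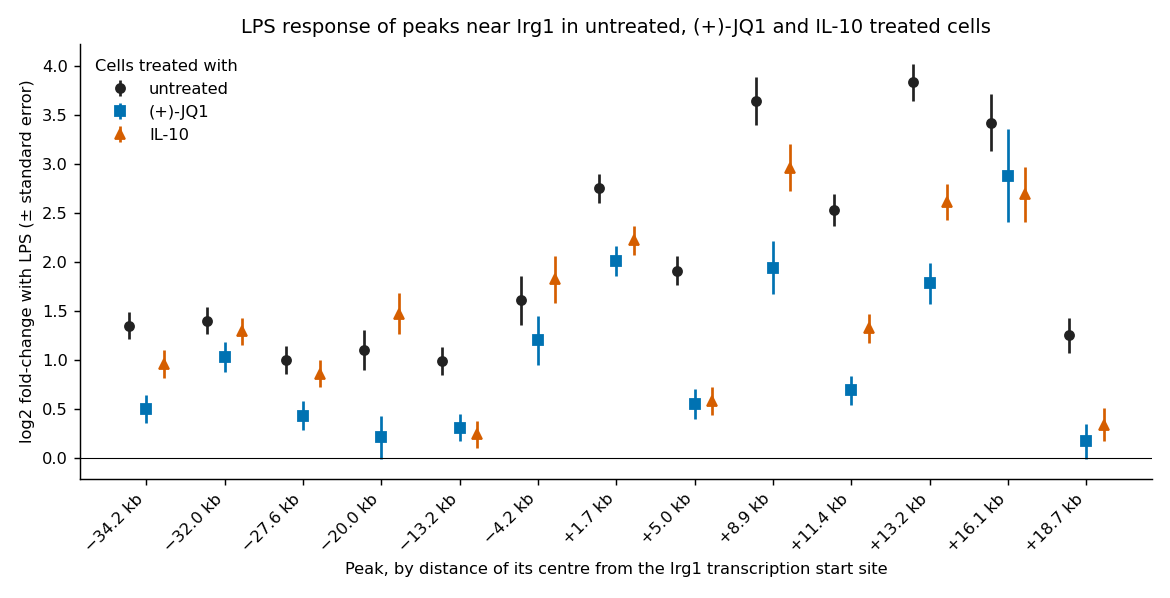
Log2 fold-change with LPS (y axis, points with standard errors) at 13 peaks from -34.2 to +18.7 kb (x axis) in untreated cells (circles), (+)-JQ1-treated cells (squares) and IL-10-treated cells (triangles). At the promoter (+1.7 kb) the values were 2.75, 2.01 and 2.22, and at +11.4 kb they were 2.53, 0.69 and 1.32.

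IL-10 alone changed little at the locus. It was compared with unstimulated cells to measure what the cytokine does in the absence of LPS. The promoter peak had 9.78 ± 1.04 CPM with IL-10 and 9.42 ± 0.930 CPM without (log2 fold-change 0.05, SE 0.16, FDR 0.887). Higher DARs numbered 4 of 61 (6.56%, against 5.16% of all peaks), among them +5.0 kb (0.53), +11.4 kb (0.54) and +18.7 kb (0.54), and 0 were lower (against 3.50%). All 4 calls were lost under total-count scaling, under loess scaling, and with replicate 1 or replicate 2 left out. Under total-count scaling 1.27% of all peaks were higher and 8.58% lower.

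LPS + IL-10 was compared with LPS to see what IL-10 changes in the response. From the promoter to +18.7 kb, 4 of the 7 peaks were lower. At +13.2 kb the values were 23.7, 18.3 and 15.1 CPM with IL-10, all below the lowest LPS library at 27.0 CPM. Its log2 fold-change was -0.71 (SE 0.15, FDR 0.000248), with -0.61 in lane 5 and -0.76 in lane 6. At +5.0 kb the fall was from 40.1 ± 2.83 to 23.1 ± 3.55 CPM (log2 fold-change -0.80, SE 0.14, FDR 9.94e-06).

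At +11.4 kb the values were 103.6, 81.8 and 62.1 CPM with LPS + IL-10, again below every LPS library (log2 fold-change -0.67, SE 0.14, FDR 0.000458). Loess scaling gave -0.47 there, under the threshold. At +8.9 kb the log2 fold-change was -0.79 (FDR 0.00112), and it was no DAR without replicate 2 or 3 or in DESeq2. The promoter peak had a log2 fold-change of -0.49 (SE 0.13, FDR 0.00858), just under the threshold. Without replicate 1 the promoter value was -0.60 and passed, whereas without replicate 2 it was -0.39 (FDR 0.284). Under total-count and under loess scaling it was -0.42. In all, 5 of 61 peaks were lower (8.20%, against 4.51% of all peaks) and 1 was higher (1.64%, against 4.26%). Under total-count scaling 3.48% of all peaks were lower and 5.35% higher, and the 5 lower peaks of the locus stayed DARs. The 1 higher peak is the one that led to the choice of the locus, and nothing is read from its count. The values did not overlap at 19 peaks that were lower (against 14.8% of all peaks) and 4 that were higher (against 12.9%).

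The 1 higher peak was the one at -72.8 kb. It had 13.1, 14.9 and 12.1 CPM with LPS and 23.2, 23.8 and 17.3 CPM with LPS + IL-10. The groups did not overlap, with a log2 difference of 0.68 (SE 0.15), 0.83 in lane 5 and 0.61 in lane 6. The LPS libraries of this comparison are also the reference of the comparison on which the peak was chosen, so the values are a description. Its neighbour at -68.8 kb had a log2 difference of 0.47 (SE 0.16).

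The fifth lower peak, with the largest fall of the 5, was at an annotated start of a Mycbp2 transcript, at +68.5 kb. The values were 10.4, 9.49 and 8.42 CPM with LPS and 4.72, 5.56 and 3.91 CPM with LPS + IL-10. The 2 groups were clearly apart, and the log2 fold-change was -1.01 (SE 0.18, FDR 1.57e-05), with -1.14 in lane 5 and -0.92 in lane 6. Against IL-10 alone, with 7.52, 8.41 and 9.77 CPM, LPS + IL-10 was also lower (-0.87, SE 0.18, FDR 0.000138). Without replicate 3 the second call was lost at a log2 fold-change of -0.63.

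Whether the LPS response itself differs between IL-10-treated and untreated cells was tested as an interaction. It was negative and past the threshold at 10 of the 61 peaks (16.4%, against 5.90% of all peaks) and positive at 0 (against 2.01%). The strongest was at +68.5 kb (-1.46, SE 0.25, FDR 3.73e-05), followed by +5.0 kb (-1.33, SE 0.21, FDR 3.99e-06), +13.2 kb (-1.22, SE 0.27, FDR 0.00105) and +11.4 kb (-1.21, SE 0.21, FDR 3.87e-05). The calls at +5.0, +11.4 and +68.5 kb held under all 13 alternatives, and that at +13.2 kb under all but the fit without replicate 2. At the promoter the interaction was -0.54 (SE 0.21, FDR 0.0948).

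Of the other 6 calls of the interaction, 4 are described here and were less firm. At -65.6 kb (-0.58) and -8.8 kb (-0.60) they were lost with the replicate number as a block, at FDRs of 0.0554 and 0.0565. Loess scaling removed the calls at -65.6 kb (0.00), -13.2 kb (-0.18) and -8.8 kb (-0.12), and total-count scaling removed those at -65.6, -13.2, -8.8 and +18.7 kb. With lane as a covariate (FDR 0.0524) and in DESeq2 the call at -8.8 kb was lost. All 4 were also lost without replicate 2, and all but that at +18.7 kb without replicate 1. Under total-count scaling the direction over all peaks turned, with 6.28% higher and 2.65% lower. Of the promoter peaks of the whole table, which include those at -65.6 and -13.2 kb, 16.9% had a negative interaction past the threshold and 1.40% a positive one.

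**Figure D4:**
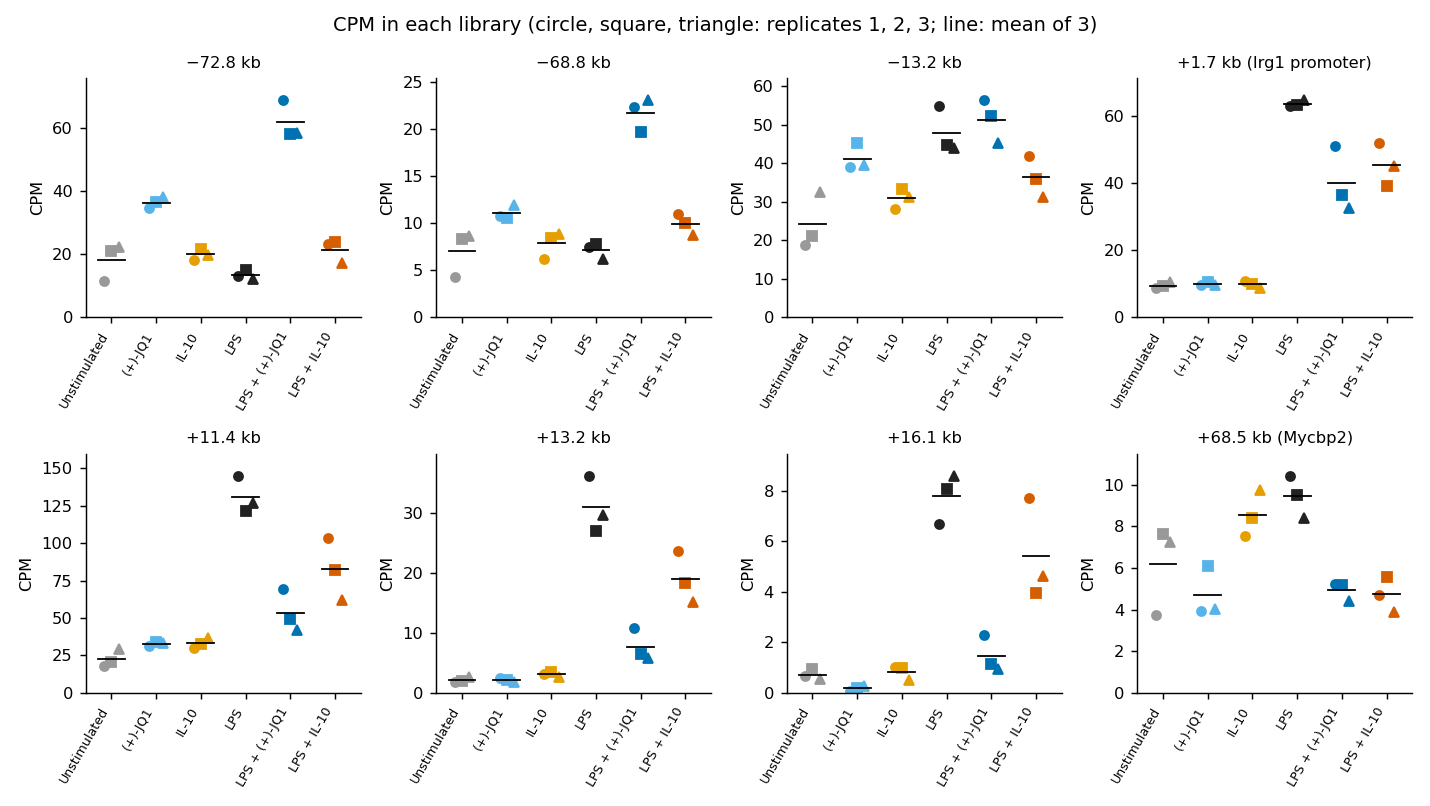
CPM (y axis, from 0) at 8 peaks in each of the 6 conditions (x axis), where circles, squares and triangles are replicates 1, 2 and 3 and lines are means of 3. At -72.8 kb the LPS + (+)-JQ1 libraries, at 58.1 to 68.8 CPM, stand above all others, and at +13.2 kb the LPS libraries, at 27.0 to 36.2 CPM, do.

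The far upstream peak at -72.8 kb, from 103370947 to 103375838, overlaps no annotated gene and was 4891 bp wide. It had 11.6, 20.9 and 22.3 CPM in unstimulated cells, 34.6, 36.4 and 38.0 CPM with (+)-JQ1, and 68.8, 58.1 and 58.2 CPM with LPS + (+)-JQ1. LPS alone gave the lowest mean, 13.4 ± 1.45 CPM, and IL-10 alone gave 19.9 ± 1.65 CPM. The order of the means was therefore LPS, unstimulated, IL-10, LPS + IL-10, (+)-JQ1 and LPS + (+)-JQ1. The ranges of unstimulated, IL-10 and LPS + IL-10 cells overlapped, while both groups with (+)-JQ1 stood above every other library.

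For (+)-JQ1, these values chose the locus and are a description. LPS + (+)-JQ1 was higher than LPS by 2.20 on the log2 scale (SE 0.15), the 10th highest of 194230 peaks, and (+)-JQ1 alone was higher than unstimulated by 0.98 (SE 0.15). The difference between those 2 effects was 1.22 (SE 0.21). In (+)-JQ1-treated cells LPS went with a log2 difference of 0.76 (SE 0.14), whereas in untreated cells LPS went with -0.46 (SE 0.15). That last value was -0.67 under total-count scaling, -0.78 under loess scaling, -0.66 without replicate 1, whose unstimulated library was the lowest of its group, and -0.23 without replicate 3.

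The adjacent peak at -68.8 kb overlaps the Kctd12 annotation and covers the annotated start of Gm17446, and it had the same order at the top. LPS + (+)-JQ1 libraries held 22.3, 19.7 and 23.1 CPM, and the LPS libraries 7.44, 7.84 and 6.21 CPM. No value overlapped, and the log2 difference of 1.59 (SE 0.16) was the 128th highest of all peaks. With (+)-JQ1 alone it was 0.63 (SE 0.17). Across the 18 libraries, Pearson's r of log2 CPM between both peaks was 0.94, as a description over libraries that share conditions. The peak at -65.6 kb, which overlaps exons of Kctd12 and was classed as promoter, had 41.3 ± 2.00 CPM in LPS + (+)-JQ1 cells, against 37.8 ± 1.76 CPM in LPS cells (log2 difference 0.13, SE 0.13). At -62.3 kb, just before the annotated Kctd12 start, the difference was 0.54 (SE 0.18).

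At the gene itself, the order with (+)-JQ1 was the opposite. The promoter had 40.1 ± 9.80 CPM with LPS + (+)-JQ1 against 63.7 ± 0.914 CPM with LPS (log2 difference -0.68, SE 0.14), and each of the 7 peaks to +18.7 kb was lower, by -0.67 to -2.51. The +13.2 kb peak held 10.8, 6.55 and 5.89 CPM, below every LPS library (-2.04, SE 0.16). The +16.1 kb peak held 2.30, 1.15 and 0.931 CPM (-2.51, SE 0.26), the 37th lowest of all peaks, and the +11.4 kb peak 69.1, 49.3 and 41.9 CPM (-1.30, SE 0.15). Summed over the 7 peaks, LPS + (+)-JQ1 stood at 45.1% of the LPS level and LPS + IL-10 at 64.3%, with values of 169.6, 125.7 and 110.4 CPM and of 234.4, 182 and 161.1 CPM. In both sums replicate 1 was the highest, and so it was with LPS, at 313 CPM against 285.1 and 300.5 CPM. In each group with LPS, replicate 1 is the only library of lane 5, so that replicate and lane cannot be told apart there.

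In the 19 upstream peaks, the sum with LPS + (+)-JQ1 was 88.1% of that with LPS, and the peaks there were not alike. Those at -24.1 kb (-1.30), -20.0 kb (-1.08), -27.6 kb (-0.84) and -32.0 kb (-0.61) were lower, whereas those at -13.2, -8.8 and -11.8 kb differed by 0.09, 0.09 and 0.04. Counted by the DAR threshold, 2 of 61 peaks were higher in LPS + (+)-JQ1 than LPS (against 1.74% of all peaks) and 14 lower (against 3.49%), and nothing is read from these counts because the rule used this contrast. With (+)-JQ1 alone, 9 were higher (against 7.85%) and 1 lower (against 3.15%), and in the interaction of LPS with (+)-JQ1, 2 were higher (against 0.649%) and 11 lower (against 3.19%). Of the 10 with (+)-JQ1 alone, 8 were no longer past the threshold under loess scaling and 6 under total-count scaling. Loess scaling turned the sign of 2 of them, among them that at +11.4 kb, from 0.53 to -0.16. Over all peaks, 1.32% were then higher and 2.27% lower under loess, and 1.97% and 14.1% under total counts.

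With (+)-JQ1 alone, the Irg1 promoter differed from unstimulated cells by 0.06 (SE 0.16), at 9.89 ± 0.532 CPM. The peak at +16.1 kb had 1, 3 and 5 reads with (+)-JQ1 alone against 10, 17 and 10 in unstimulated cells, so that its log2 difference of -1.97 (SE 0.53) rests on few reads.

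The levels of the Irg1 promoter peak fell into 2 sets. Unstimulated, IL-10 and (+)-JQ1 cells had means of 9.42, 9.78 and 9.89 CPM, with overlapping ranges. LPS + (+)-JQ1, LPS + IL-10 and LPS cells had means of 40.1, 45.4 and 63.7 CPM, of which the ranges of the first 2 overlapped and the LPS libraries were above both. Among the other peaks of the window, those with the most similar course over the 18 libraries by Pearson's r of log2 CPM were at -32.0 kb (0.97), +13.2 kb (0.96) and +8.9 kb (0.95), and the peak at -72.8 kb had -0.02. Among 23323 promoter peaks of other genes, the most similar were those of Astl (r = 0.992), Zbp1 (0.988), Isg15 (0.985), Aanat (0.984) and Ccl5 (0.982), of which Zbp1 encodes a sensor of Z-form nucleic acids, Isg15 a ubiquitin-like protein and Ccl5 a chemokine. The libraries share conditions, so these correlations carry no test.

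The genes of the itaconate pathway were examined at their promoter peaks, from a list of 44 genes of which 42 had at least 1 such peak, 86 in all. With LPS, 31 of the 86 were higher (36.0%, against 14.3% of all promoter peaks) and 2 lower (2.33%, against 6.71%), with a median log2 fold-change of 0.42 against 0.12. Under total-count and loess scaling the higher peaks numbered 14 (16.3%, against 5.9% of all promoter peaks) and 13 (15.1%, against 7.08%). Of the 22 peaks of 7 transcription factors known to act on Irg1 or in macrophage activation, 17 rose, in 6 genes, and 8 of the 17 were peaks of 1 gene, Nfkb1, which has 9. Of 38 peaks of citrate-cycle enzymes 6 rose (15.8%, near the 14.3% of all promoter peaks) and 2 fell.

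Among the factors, Nfkb1, which encodes the p50 subunit of NF-kappaB, had rises of up to 1.78 (SE 0.26, FDR 3.07e-08), and Irf1 of 0.95 (SE 0.13, FDR 6.34e-09). Peaks of Spi1 (PU.1), Rela and Cebpb rose by 0.50 to 0.66, and none of Irf8 passed. Among 18 peaks of the electrophile response, 7 rose (38.9%, against 14.3% of all promoter peaks), and 4 of the 7 were the 4 peaks of 1 gene, Nfkbiz. The rises were at Slc7a11 (a cystine transporter, 1.34, FDR 2.08e-12), Nfkbiz (an itaconate-sensitive NF-kappaB cofactor, up to 1.67, FDR 6.24e-18), Keap1 (0.53, FDR 0.00274) and Txnrd1 (0.51, FDR 0.00293). Those at Keap1 and Txnrd1 were close to the threshold. Nfe2l2, which encodes NRF2, had 0.49 (FDR 0.00453), and the 2 peaks of Hmox1 had 0.02 and 0.32. Of 8 peaks of transport and removal genes 1 rose (12.5%, near the 14.3% of all promoter peaks), at Slc13a3, a dicarboxylate transporter (0.69, FDR 9.92e-05).

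LPS + IL-10 against LPS lowered 11 of the 86 peaks (12.8%, against 3.94% of promoter peaks) and raised 2 (2.33%, against 3.04%). Of the 11, 7 were at Nfkb1, from -0.52 to -1.47, with 31.4 ± 2.24 CPM in LPS and 15.6 ± 2.11 CPM in LPS + IL-10 at the most accessible of those past -1 (FDR 3.65e-08). The others included peaks at Irf1 (-0.64, FDR 0.000199), Nfkbiz (-0.62, FDR 0.000662) and Idh3g (-0.53, FDR 0.00588), a subunit of isocitrate dehydrogenase of which another peak rose (1.11, FDR 0.0136). Slc25a11, a mitochondrial carrier, rose by 0.52 (FDR 0.0102). In LPS + (+)-JQ1 against LPS, the contrast that chose the locus, 2 of the 86 peaks were past the DAR threshold in each direction (2.33%, against 1.72% of promoter peaks higher and 3.22% lower), as a description. The log2 differences were 0.71 (SE 0.16) at Nqo1, an NRF2 target, 0.85 (SE 0.28) at Idh3a and -0.60 (SE 0.17) at Nfkbiz.

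At the edges of the window, levels differed from peak to peak. The outermost members, at -97.2 and +108.8 kb, had 0.571 ± 0.211 and 7.72 ± 0.888 CPM in unstimulated cells. The nearest peaks outside, at -103.9 and +115.8 kb, had 5.13 ± 0.878 and 0.636 ± 0.212 CPM. As a description, the means at -103.9 kb were 6.075 CPM with (+)-JQ1 and 6.818 CPM with LPS + (+)-JQ1. They were 4.638 CPM with LPS, 4.961 CPM with IL-10 and 5.328 CPM with LPS + IL-10.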

How the data were processed

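ATAC-seq libraries were aligned by the authors to mm9 with Bowtie2 in PEPATAC, peaks were called per library with MACS2 and merged, and the deposited values are raw counts of reads per peak, without normalization or pooling. Promoter and distal classes came from the authors' ChIPseeker tables. The tool that counted the reads and any shift for transposase insertion are not given in the sources used here, and the files hold no summits. The union table has 6 further count columns that match no sample, and these were not used. Coordinates are printed as the files give them.

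All 18 libraries entered 1 edgeR 4.0.16 quasi-likelihood fit (R 4.3.3; filterByExpr, TMM, 6 groups, no block). Each standard error (SE) is approximate and was taken as the |log2 fold-change| divided by the square root of the F statistic of the test. The study used DESeq2, run here as an alternative (1.42.0). Replicate numbers were taken to mark the same mouse, which the sample titles do not state. Deviations from group means correlated at 0.00573 on average over 45 pairs with the same number and at -0.00286 over 90 others. A pairing by number is thus not visible in these values. The replicate block moved 2 member calls. Other alternatives were scaling, filter, lane, samples fitted, FDR of 0.01, window size and each replicate left out.

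The locus, the named peaks and the gene lists were chosen with earlier results of these data known. Named were the peaks of Irg1, the (+)-JQ1 peak, promoters of neighbouring genes, and those with the largest changes and levels. Gene models were GENCODE M1, and motif searches used the NCBIM37 genome. The fit was also run on simulated counts, drawn with its own estimates of spread and with set changes in the LPS group only. Those counts held no differences of lane or replicate and no need of scaling beyond the library total, so they say nothing of these limits. Values of 11 of the 61 peaks, of 2 interaction calls among them and of some pathway promoters are not reported here, but all entered the counts and medians.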

Additional observations from a re-analysis of the deposited data

Results flagged for a closer look

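Interaction results at 8 peaks were singled out because the LPS response differed between IL-10-treated and untreated cells by an interaction test. They were not equally firm, and the calls at -65.6 and -8.8 kb held in only 5 and 4 of 13 alternative settings. On the log2 scale the differences (with minus without IL-10) were -1.46 at +68.5 kb, -1.33 at +5.0 kb, -1.22 at +13.2 kb, -1.21 at +11.4 kb, -0.91 at +18.7 kb, -0.75 at -13.2 kb, -0.60 at -8.8 kb and -0.58 at -65.6 kb. At +18.7 kb LPS went with 1.25 in untreated cells and 0.34 in IL-10-treated cells. At +68.5 kb the same values were 0.59 and -0.87, which are opposite in sign. The first was no DAR under total-count or loess scaling or without replicate 1, and the second was none without replicate 3.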

How the results depend on the processing

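Counts of locus peaks past the threshold moved as follows. LPS against unstimulated, lower (0): 1 under total-count or loess scaling, with at least 10 counts in every library and in a 200 kb window, and 0 to 1 without a replicate. LPS + (+)-JQ1 against (+)-JQ1, lower (0): 1 in a 200 kb window. LPS + IL-10 against IL-10, lower (1): 0 in a 50 kb and 5 in a 200 kb window, and 0 to 3 without a replicate. IL-10 alone, higher (4): 1 at an FDR of 0.01, 0 under total-count or loess scaling or at least 10 counts, 2 with only the groups compared, 8 in a 200 kb window and 0 to 8 without a replicate; lower (0): 3 under total counts, 1 under loess and 2 with at least 10 counts. LPS + IL-10 against LPS, higher (1): 2 under total counts, 0 in a 50 kb and 2 in a 200 kb window; lower (5): 4 to 8 without a replicate. The interaction, higher (0): 1 under total counts, loess, at least 10 counts and a 200 kb window; lower (10): 6 under total counts, 5 under loess, and 3 to 11 without a replicate, the 3 without replicate 2. At the promoter, the log2 fold-change with IL-10 alone (0.05) was -0.15 under total counts, -0.30 under loess, -0.05 with at least 10 counts and -0.07 to 0.21 without a replicate. Without a replicate, LPS + IL-10 against LPS (-0.49) ranged from -0.60 to -0.39 and the interaction (-0.54) from -0.68 to -0.42. At -72.8 kb, LPS + IL-10 against IL-10 (0.11) was -0.02 to 0.24 without a replicate, and IL-10 alone (0.11) was -0.08 under total counts, -0.24 under loess and -0.04 to 0.28 without a replicate. The cause of these moves was not tested.

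Pathway promoters higher with LPS (31) numbered 14 under total counts, 13 under loess and 20 to 51 without a replicate, and lower ones (2) 0 at an FDR of 0.01, 5 under total counts, 1 with at least 10 counts, 1 with only the groups compared and 0 to 2 without a replicate. For LPS + (+)-JQ1 against LPS, higher (2) and lower (2) were 1 and 0 at an FDR of 0.01, 1 and 1 in DESeq2, and 0 to 2 and 0 to 1 without a replicate. For LPS + IL-10 against LPS, higher (2) were 0 at an FDR of 0.01 and 0 to 1 without a replicate, and lower (11) 7 to 11 without a replicate.

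The replicate block removed the interaction calls at -65.6 kb (-0.58, FDR 0.0554) and -8.8 kb (-0.61, FDR 0.0565) and changed no other call of a locus peak. Of the values taken as main results, over the settings, 272 kept their direction and side of the threshold or, for a count, stayed within 1.5 times. Of the rest, 36 became weaker or fell as a count and 24 became stronger or rose as a count. Another 4 turned direction, all 4 at the promoter with IL-10 alone. Outside the main results, 4 further values turned direction, among them those of IL-10 alone at -72.8 kb. Peaks with few reads, such as that at +16.1 kb, are limited by depth.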
